A study of Mus musculus with 6 samples.

Results

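The genes described here are the collagens, the laminins and the enzymes and linker proteins that act on them. They were taken by symbol: every collagen or laminin chain gene on the array, with the prolyl hydroxylase subunits P4ha1 to P4ha3, the lysyl hydroxylases Plod1 and Plod2, Lox and its relatives Loxl1, Loxl3 and Loxl4, the nidogens Nid1 and Nid2, and the perlecan gene Hspg2. This gave 64 of the 19505 genes measured, comprising 42 collagen chains, 10 laminin chains, 3 nidogen and perlecan genes and 9 enzymes. Each was read by 1 probe set, and Col7a1, Col12a1, Loxl2 and Plod3 were not analysed here. Expression was compared between 393P cells stably transfected with AC9 (3 arrays) and 393P cells stably transfected with the empty VECTOR (3 arrays). 393P, written 9393P in some labels, comes from a lung adenocarcinoma of a mouse. RefSeq gives AC9 as another name of Adcy9, which encodes an adenylyl cyclase, an enzyme that makes cAMP. All cells grew in RPMI with fetal bovine serum and were selected with puromycin or G418. The sources used here do not give the drug of each group, whether a group is a pool or a clone, or the promoter that drives AC9. Effects of AC9 and of selection cannot be told apart.

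Collagens are secreted proteins in which 3 alpha chains wind into a triple helix. Prolyl hydroxylases stabilise that helix, lysyl hydroxylases prepare lysines for glycosylation and cross-linking, and lysyl oxidases start the cross-links outside the cell. Laminins are trimers of an alpha, a beta and a gamma chain that polymerise on the cell surface, and with type IV collagen, nidogen and perlecan they form the basement membrane on which epithelial cells, including those of the lung, rest.

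Values are RMA log2 intensities, and a log2 change is the AC9 mean minus the VECTOR mean. The median over all genes was 6.42 to 6.46 per array, and correlations across genes, which are not independent replicates, were 0.994 to 0.996 within a group and 0.985 to 0.988 between groups. A bound for dim signals was the 90th percentile of the negative control probe sets. It lay at 6.076 to 6.112 on the AC9 arrays and at 5.997 to 6.066 on the VECTOR arrays. A gene is said to lie under the bound in a group when all 3 arrays of that group do. Adcy9 read 6.78, 6.60 and 6.82 in AC9 cells, against 6.12, 6.09 and 6.15 in VECTOR cells (log2 change 0.61, SE 0.10, limma adjusted p 0.00264). Of 8 epithelial markers, all lay above the bound in at least 1 group, with 3 called higher and 1 lower (limma). Their summed linear intensity was 20270 to 21130 in AC9 cells and 21710 to 23260 in VECTOR cells. In both groups 6 of 7 fibroblast, 7 of 8 endothelial, 5 of 6 leukocyte and 4 of 5 smooth muscle markers lay under the bound. The summed linear intensity of the fibroblast markers was 248 to 281 in AC9 cells and 297 to 319 in VECTOR cells. Fbln1, the 1 marker above the bound, was also the only one called (lower, limma adjusted p 0.0052). It is itself among the matrix genes reported below as fallen, so the sum is no separate measure of fibroblasts. The part of fibroblasts in the falls below was not tested.

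The promoters of Lamb1 and Lamb2 are shown first because these alternative laminin beta chains moved in opposite directions, with those of P4ha3, the gene with the largest change, and of Col6a1 and Col6a2, neighbouring genes that fell together. Each sequence is the 250 bases before the RefSeq start of the gene (GRCm38.p6), read 5′ to 3′ on the strand of the gene, and capitals mark GC boxes and an AP-1 site. Lamb1 is at chr12:31265043-31265292 (plus strand), Lamb2 at chr9:108479612-108479861 (plus strand), P4ha3 at chr7:100285270-100285519 (plus strand), Col6a1 at chr10:76726045-76726294 (minus strand) and Col6a2 at chr10:76623631-76623880 (minus strand).
Lamb1: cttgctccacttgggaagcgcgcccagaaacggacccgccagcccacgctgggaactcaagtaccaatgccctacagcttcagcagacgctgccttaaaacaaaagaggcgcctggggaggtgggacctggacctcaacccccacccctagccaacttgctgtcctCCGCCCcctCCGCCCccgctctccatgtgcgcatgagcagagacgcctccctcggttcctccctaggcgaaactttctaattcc
Lamb2: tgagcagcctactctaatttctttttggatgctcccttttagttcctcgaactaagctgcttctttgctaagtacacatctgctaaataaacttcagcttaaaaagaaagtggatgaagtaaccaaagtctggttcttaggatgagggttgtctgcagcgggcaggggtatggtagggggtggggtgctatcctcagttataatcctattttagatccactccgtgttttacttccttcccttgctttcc
P4ha3: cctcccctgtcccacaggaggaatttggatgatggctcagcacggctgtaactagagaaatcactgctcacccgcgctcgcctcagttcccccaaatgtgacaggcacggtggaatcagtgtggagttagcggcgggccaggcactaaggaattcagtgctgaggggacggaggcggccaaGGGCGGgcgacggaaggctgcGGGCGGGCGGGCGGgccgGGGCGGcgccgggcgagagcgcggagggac
Col6a1: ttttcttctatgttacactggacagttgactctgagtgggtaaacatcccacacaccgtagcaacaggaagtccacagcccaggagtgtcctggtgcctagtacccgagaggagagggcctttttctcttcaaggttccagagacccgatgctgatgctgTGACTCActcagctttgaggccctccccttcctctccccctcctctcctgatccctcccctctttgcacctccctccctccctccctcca
Col6a2: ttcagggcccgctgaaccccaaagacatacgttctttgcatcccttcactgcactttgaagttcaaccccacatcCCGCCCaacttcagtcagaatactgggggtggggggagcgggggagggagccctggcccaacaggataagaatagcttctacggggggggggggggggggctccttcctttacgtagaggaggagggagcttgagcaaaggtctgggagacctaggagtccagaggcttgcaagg

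A GC box, searched as GGGCGG on both strands, occurs 2 times before Lamb1, at 84 and 75 bases from the start, and 0 times before Lamb2. The G and C content of the window is 62% for Lamb1 and 43.6% for Lamb2. P4ha3 holds 5 GC boxes, some of which overlap, starting between 69 and 30 bases from its start. Col6a2 holds 1 at 175 bases in the window shown, and 3 before a second RefSeq start, whereas Col6a1 holds none and has instead 1 AP-1 site (TGANTCA) at 90 bases. RefSeq windows were matched for 46 of the 64 genes (50 windows). Among the genes called below, 7 had a window, while Lamc1 and Loxl3 had none. A GC box occurs in 30 of the 50 windows (60%), against 32.7% of all 32851 windows. The median G and C content was 60.6% in the windows of these genes and 52.4% in all windows. The complete cAMP response element TGACGTCA occurs in 0 of the 50 windows and in 1.55% of all windows, and its core TGACG, which the complete element contains, in 12% and 17.8%. The E-box CAGGTG, a sequence read by Zeb1, occurs in 12% and 17.2%, and the AP-1 letters in 2% and 6.75%. These matches describe letters in a short window and say nothing of binding.

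In AC9 cells 4 of the 64 genes rose and 5 fell at an adjusted p of 0.05 (limma, Benjamini-Hochberg over all genes). The genes that rose were the laminin chains Lamb1 and Lamc1 and the collagens Col18a1 and Col6a6, and those that fell were the laminin chain Lamb2, the collagen VI chains Col6a1 and Col6a2, and the enzymes P4ha3 and Loxl3. The 9 calls make up 14.1% of these genes, against 17.6% of all genes tested, with 8.26% of all genes higher and 9.29% lower. Among genes above the bound in at least 1 group, 8 of 41 collagen, laminin and enzyme genes were called (19.5%), against 27.9% of all such genes. The median log2 change was 0.09 for the 64 genes and 0.02 for all genes. Groups did not overlap for 17 of the 64 genes (9 higher and 8 lower), or 26.6%, against 35.1% of all genes. By these counts the group as a whole was no richer in changed genes than the array. Only P4ha3 among the 64 changed by at least 2-fold. Of the 55 genes not called, 28 lay under the bound in neither group. Each of these had a 95% interval inside a 2-fold difference in either direction. A gene with only 1 of 3 arrays of a group above the bound, such as Col19a1 in AC9 cells, is counted here as not under it. The other genes not called lay under the bound in 1 group (5) or in both (22), and their intervals set no limit on the change.

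**Figure D1:**
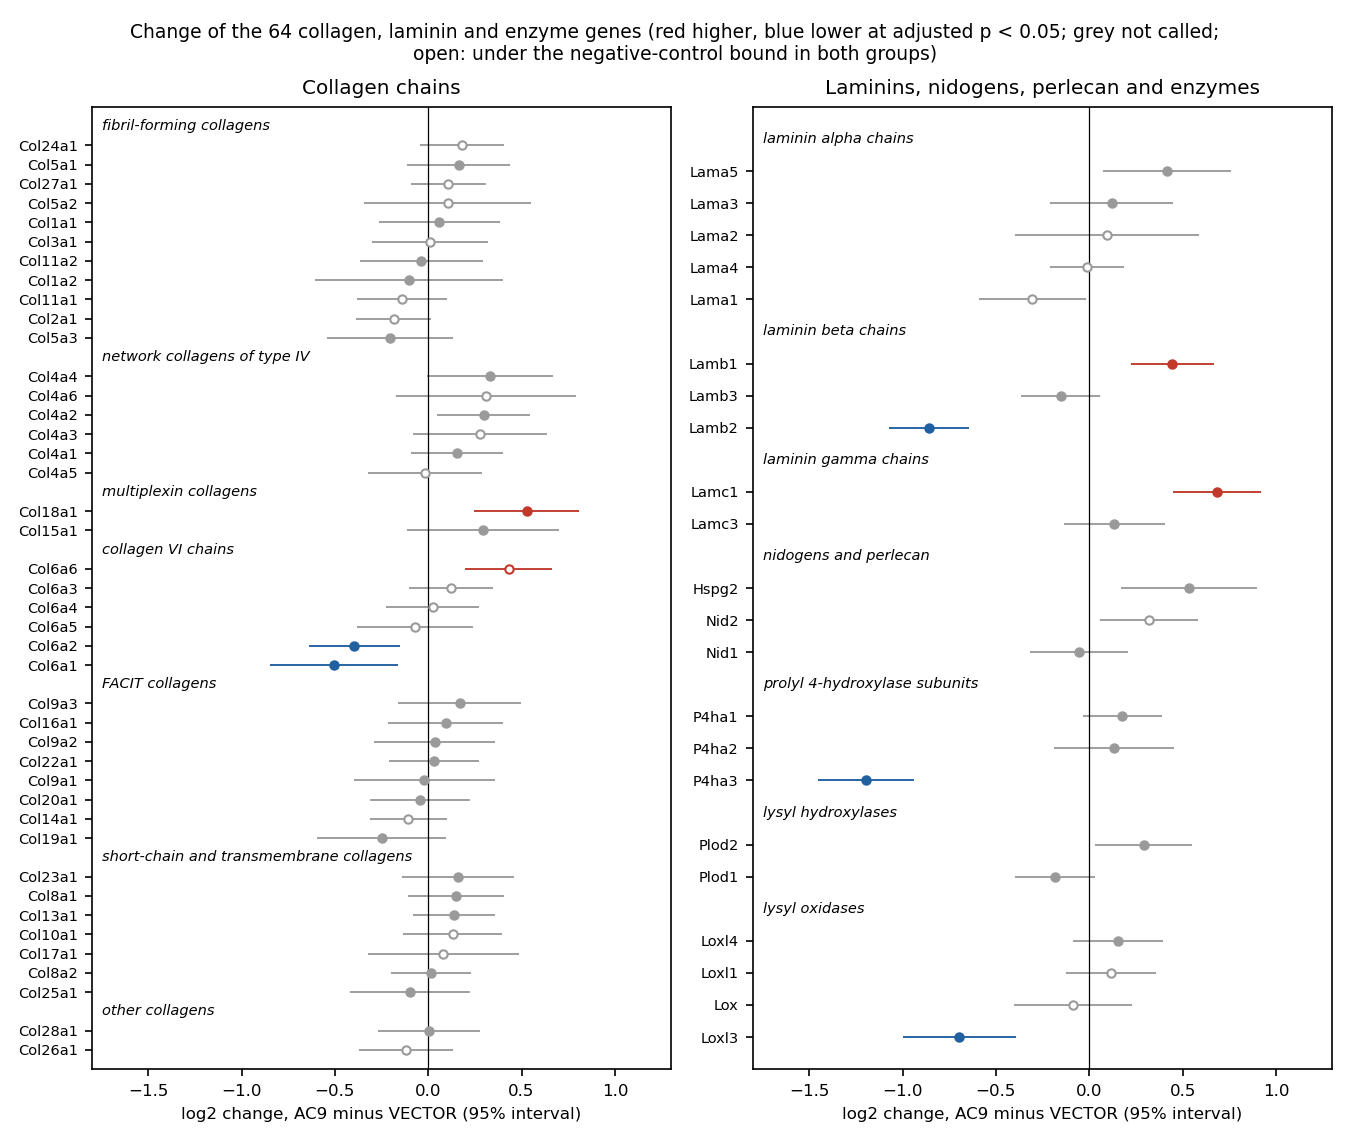
Log2 change (AC9 minus VECTOR, horizontal axis) with its 95% interval for each of the 64 genes, grouped by role; red and blue points passed an adjusted p of 0.05, grey ones did not, and open points mark genes dimmer than that bound in both groups. P4ha3 lies furthest to the left at -1.19 and Lamc1 furthest to the right at 0.68; the position of an open point is not a measured size of change.

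Among the laminin chains, 2 of the 10 rose and 1 fell. Lamc1, the gamma chain of most laminins, read 9.43, 9.36 and 9.37 in AC9 cells, against 8.55, 8.69 and 8.87 in VECTOR cells. All 3 AC9 arrays lay above all 3 VECTOR arrays, and the log2 change was 0.68 (SE 0.10, adjusted p 0.00227), or 1.61-fold. Lamb1, the beta chain that pairs with it in many epithelial laminins, read 10.31, 10.35 and 10.49 in AC9 cells, against 9.92, 9.85 and 10.05 in VECTOR cells. Its groups did not overlap either, with a log2 change of 0.44 (SE 0.10, adjusted p 0.0138), but without AC9 replicate 3 the adjusted p was 0.0575.

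Lamb2, the beta chain used in place of Lamb1 at the neuromuscular junction and in the glomerular basement membrane, went the other way. It read 7.16, 7.03 and 7.01 in AC9 cells, against 7.95, 7.99 and 7.84 in VECTOR cells. All 3 AC9 arrays lay below all 3 VECTOR arrays; the change was -0.86 on the log2 scale (SE 0.09, adjusted p 0.000401), or 1.81-fold. Lamb3, the beta chain of the epithelial laminin anchored at hemidesmosomes, read 8.22, 8.25 and 8.38 in AC9 cells and 8.51, 8.40 and 8.40 in VECTOR cells. Its groups did not overlap, yet the change of -0.15 (95% interval -0.36 to 0.06) did not pass (adjusted p 0.315). The changes of Lamb1 and Lamb2 have intervals of 0.22 to 0.67 and -1.07 to -0.65.

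The alpha chains, which carry most of the receptor-binding sites of laminins, gave no call among 5, with 2 at an unadjusted p under 0.05 (Lama5 and Lama1). Lama5, the broadly used epithelial alpha chain that assembles with Lamb1 or Lamb2 and Lamc1, read 7.68, 7.99 and 7.82 in AC9 cells and 7.09, 7.68 and 7.47 in VECTOR cells. The lowest AC9 array lay just below the highest VECTOR array, and the change of 0.42 (95% interval 0.07 to 0.76) had a limma adjusted p of 0.0954. With 1 array left out, Lama5 passed only without VECTOR replicate 2, and it also passed with the replicate block. Its adjusted p under the other settings is not given here. Lama3, the alpha partner of Lamb3, lay under the bound in VECTOR cells and was not called (adjusted p 0.644). Lama1, Lama2 and Lama4 lay under the bound in both groups. Lamc3, a gamma chain of restricted expression, lay under the bound in VECTOR cells and had an adjusted p of 0.517.

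**Figure D2:**
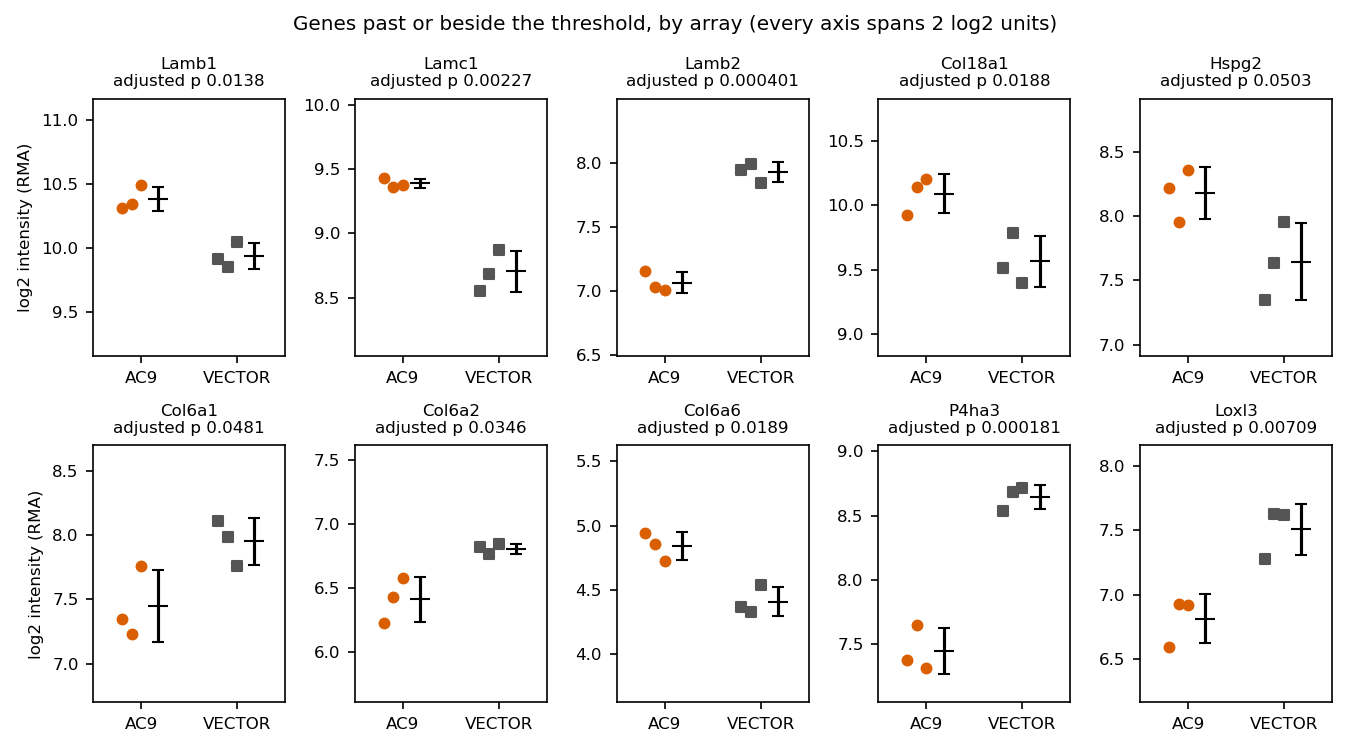
Log2 intensity on each array (points; circles AC9, squares VECTOR) with the mean and SD of each group (n = 3) for the 9 called genes and Hspg2, every vertical axis spanning 2 log2 units. Lamb2 and P4ha3 show the widest gaps between groups, while the highest AC9 array of Col6a1, 7.76, meets the lowest VECTOR array.

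Of the other basement membrane genes, Col18a1 rose. This collagen carries heparan sulfate chains and its end fragment is endostatin. It read 9.92, 10.15 and 10.21 in AC9 cells, against 9.51, 9.78 and 9.40 in VECTOR cells, with no overlap and a log2 change of 0.53 (SE 0.13, adjusted p 0.0188). The call was lost without AC9 replicate 2 (adjusted p 0.0600), AC9 replicate 3 (0.0685), VECTOR replicate 1 (0.0625) or VECTOR replicate 3 (0.0596). Its relative Col15a1 had a change of 0.29 (interval -0.11 to 0.70, adjusted p 0.322).

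Hspg2, the core protein of the heparan sulfate proteoglycan perlecan, lay just outside the threshold at an adjusted p of 0.0503, where Col6a1 lay just inside at 0.0481. It read 8.22, 7.96 and 8.36 in AC9 cells and 7.35, 7.63 and 7.95 in VECTOR cells, a change of 0.53 (SE 0.16). The groups are separated by less than 0.01, between AC9 replicate 2 and VECTOR replicate 3. Hspg2 passed without VECTOR replicate 3 (adjusted p 0.0192) or AC9 replicate 2 (0.0398), but with any of the other arrays left out its adjusted p was 0.114 to 0.152. It also passed with the intensity-trended prior (0.00376), the filter on dim genes (0.0239), the replicate block (0.0303), repeated quantile normalization (0.0353), array weights (0.0366) and median centring (0.0421), and not with the other probe-set choices (0.0503 and 0.0504). Nid1, which links laminin to type IV collagen, had a change of -0.06 (interval -0.32 to 0.21), and Nid2 lay under the bound in both groups.

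Of the 6 type IV chains, which build the basement membrane network, 0 passed with limma (1 at an unadjusted p under 0.05, Col4a2). Col4a1 and Col4a2, which form the common type IV trimer, are neighbours on chromosome 8 with RefSeq starts that face away from each other. Col4a2 read 7.87, 7.70 and 7.81 in AC9 cells and 7.47, 7.34 and 7.67 in VECTOR cells, without overlap (change 0.30, adjusted p 0.102). Col4a1 read 8.03, 8.03 and 8.05 in AC9 cells and 7.74, 7.82 and 8.10 in VECTOR cells, where VECTOR replicate 3 lay above all AC9 arrays (change 0.15, adjusted p 0.405). With 1 array left out, Col4a2 was called only without VECTOR replicate 3, and its adjusted p under the other settings is not given here. Col4a3, Col4a5 and Col4a6 lay under the bound in both groups and Col4a4 in VECTOR cells, so no size is given for these chains.

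Collagen VI, which forms beaded filaments beside the basement membrane, had calls for 3 of 6 chains, where 17.6% of all genes were called. Only 2 of the 6 chains lay above the bound in at least 1 group. Col6a1 and Col6a2 are adjacent protein-coding genes on chromosome 10, and their products must join with another chain to leave the cell. Col6a2 read 6.23, 6.43 and 6.58 in AC9 cells, against 6.82, 6.77 and 6.84 in VECTOR cells, without overlap (log2 change -0.40, SE 0.11, adjusted p 0.0346). Col6a1 read 7.34, 7.23 and 7.76 in AC9 cells, against 8.11, 7.98 and 7.76 in VECTOR cells. Here AC9 replicate 3 and VECTOR replicate 3 met, and the change was -0.50 (SE 0.15, adjusted p 0.0481).

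Both calls were lost without most of the arrays. Col6a2 was lost without AC9 replicate 1 (adjusted p 0.124), AC9 replicate 2 (0.0805) or VECTOR replicate 1, 2 or 3 (0.0855, 0.0651 and 0.0833). Col6a1 was lost without AC9 replicate 1 (0.144), AC9 replicate 2 (0.148), VECTOR replicate 1 (0.147) or VECTOR replicate 2 (0.115), and also with repeated quantile normalization (0.0736), median centring (0.0627), array weights (0.0527) and the replicate block (0.0741). Of the chains that could complete the trimer, Col6a3, Col6a4 and Col6a5 lay under the bound in both groups and were not called. Col6a6 was called upward (adjusted p 0.0189) but it too lay under the bound in both groups, at 4.94, 4.86 and 4.72 in AC9 cells and 4.37, 4.33 and 4.54 in VECTOR cells, so no size is given. Its call was lost without AC9 replicate 1 (0.0788), AC9 replicate 2 (0.0576), VECTOR replicate 1 (0.0597) or VECTOR replicate 2 (0.0607).

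None of the 11 fibril-forming collagen chains, the main collagens of connective tissue, passed with limma (0 at an unadjusted p under 0.05), and 6 lay under the bound in both groups. Col1a1, a chain of type I collagen, read 6.74, 7.19 and 7.10 in AC9 cells and 6.86, 6.81 and 7.17 in VECTOR cells (change 0.06, interval -0.26 to 0.38). Its partner Col1a2 lay under the bound in AC9 cells, and in VECTOR cells 1 of 3 arrays, at 6.02, exceeded its bound. Col3a1, of type III collagen, lay under it in both groups. Col11a2, of type XI collagen, read 7.79, 8.03 and 7.68 in AC9 cells and 7.73, 8.17 and 7.71 in VECTOR cells (change -0.04, interval -0.37 to 0.29). Col5a3, a chain of type V collagen, lay under the bound in AC9 cells and was not called (adjusted p 0.411).

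The 17 remaining collagens likewise gave 0 calls with limma (0 at an unadjusted p under 0.05). They comprised 8 FACIT collagens, which sit on the surface of fibrils, 7 short-chain or transmembrane collagens, and Col26a1 and Col28a1. Their changes ran between -0.25 for Col19a1 and 0.17 for Col9a3, with 13 of the 17 above the bound in at least 1 group. In AC9 cells Col19a1 read 6.15, 5.74 and 5.61, and only the first array exceeded its bound, so its change is uncertain in size. Col8a2, a short-chain collagen of vessel walls and corneal endothelium, read 8.38, 8.53 and 8.45 in AC9 cells and 8.53, 8.42 and 8.35 in VECTOR cells, with overlapping groups (change 0.02, interval -0.20 to 0.23).

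The largest change lay in an enzyme. P4ha3 encodes a catalytic alpha subunit of collagen prolyl hydroxylase, which forms hydroxyproline in the collagen helix. It read 7.38, 7.65 and 7.32 in AC9 cells, against 8.53, 8.68 and 8.71 in VECTOR cells. The groups lay well apart: the log2 change was -1.19, with a 95% interval of -1.45 to -0.94 (SE 0.11, adjusted p 0.000181), or 2.29-fold.

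The other alpha subunits of the same enzyme were not called. P4ha1 read 10.01, 10.04 and 9.99 in AC9 cells and 9.77, 9.79 and 9.95 in VECTOR cells, without overlap (change 0.18, interval -0.03 to 0.39, adjusted p 0.243). P4ha2 had a change of 0.13 (interval -0.19 to 0.45, adjusted p 0.593). P4hb, the shared beta subunit and a protein disulfide isomerase, had a change of -0.21 (adjusted p 0.185). The interval of P4ha3 lies wholly below those of P4ha1 and P4ha2; the difference between the subunits was not tested.

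Loxl3, a lysyl oxidase, fell. It read 6.59, 6.93 and 6.92 in AC9 cells, against 7.28, 7.63 and 7.62 in VECTOR cells, without overlap (log2 change -0.70, SE 0.13, adjusted p 0.00709, 1.62-fold). Loxl4 read 8.81, 8.60 and 8.87 in AC9 cells and 8.51, 8.71 and 8.60 in VECTOR cells (change 0.15, adjusted p 0.394), and Lox and Loxl1 lay under the bound in both groups. Of the lysyl hydroxylases, Plod2, which acts on the ends of collagen chains, read 8.40, 8.27 and 8.32 in AC9 cells and 7.87, 7.98 and 8.26 in VECTOR cells (change 0.29, adjusted p 0.125), and was called only without VECTOR replicate 3 (0.0347). Plod1, which acts on the helix, read 8.23, 8.19 and 8.38 in AC9 cells and 8.47, 8.498 and 8.39 in VECTOR cells (change -0.18, adjusted p 0.234). Neither pair of groups overlapped, but both gaps were under 0.01. They lay between AC9 replicate 3 and VECTOR replicate 3 for Plod1, and between AC9 replicate 2 and VECTOR replicate 3 for Plod2.

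**Figure D3:**
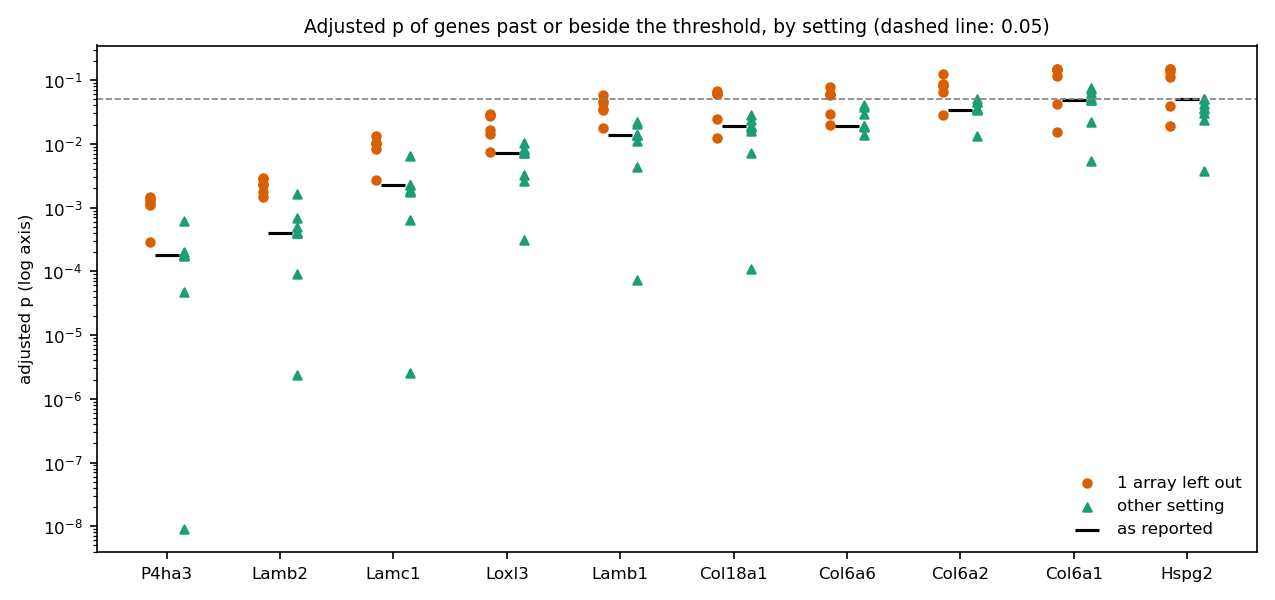
Adjusted p (log axis) of the 9 called genes and Hspg2 as reported (bar), with 1 array left out (circles) and under the other settings (triangles); the dashed line is 0.05. P4ha3, Lamb2, Lamc1 and Loxl3 stay under the line in every setting, while the other 6 genes have values on both sides of it.

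P4ha3, Lamb2, Lamc1 and Loxl3 were called in each of the 14 other settings run for them, with a highest adjusted p of 0.00148, 0.00291, 0.0131 and 0.0290. The count of called genes was 5 without VECTOR replicate 1 and 10 without VECTOR replicate 3. After repeated quantile normalization, median centring or array weighting the split was 5 higher and 4 lower in place of 4 and 5. Background probe sets, which match no transcript, read lower in AC9 cells, with groups that did not overlap, for 19 of 23 classes by GC content, by up to -0.50 in class 25 (6.80 ± 0.17 in AC9 cells and 7.30 ± 0.24 in VECTOR cells, SD, n = 3). The falls of P4ha3, Lamb2 and Loxl3 were larger than that shift, that of Col6a1 was about as large and that of Col6a2 smaller; its part in these falls was not tested. The negative control bound differed the other way, at 6.076 to 6.112 on the AC9 arrays and 5.997 to 6.066 on the VECTOR arrays. In whole-culture RNA, fewer cells expressing a gene and less of its RNA per cell cannot be told apart.

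The wider collagen and laminin pathway was read from 4 lists, chosen, like the genes above, with earlier results of these data known. Of 24 measured genes that fold, process or export procollagen, 2 rose and 4 fell (median -0.10). That is 25% called, beside 17.6% of all genes, and 3 of the 24 lay under the bound in both groups. Fkbp14, a prolyl isomerase of the endoplasmic reticulum, had a change of -1.04 and P3h4, a scaffold of the lysyl hydroxylation complex, of -0.76, while Sec24d, a coat protein for procollagen export, rose by 0.82 and P3h2, a prolyl 3-hydroxylase active on type IV collagen, by 0.73 (adjusted p 0.00338, 0.000824, 0.00594 and 0.00282). The collagen chaperone Serpinh1 had a change of -0.10 (adjusted p 0.589).

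Collagen receptors moved in both directions, with 3 of 10 higher and 1 lower (median 0.22). That is 40% called, beside 17.6% of all genes, and 5 of the 10 lay under the bound in both groups. Itga2, a collagen-binding integrin subunit, read 11.38, 11.36 and 11.47 in AC9 cells, against 9.94, 10.13 and 10.28 in VECTOR cells (log2 change 1.29, SE 0.11, limma adjusted p 8.8e-05). Ddr1, a receptor tyrosine kinase for collagens including type IV, read 7.004, 6.83 and 7.17 in AC9 cells, against 7.98, 8.12 and 8.05 in VECTOR cells (change -1.05, SE 0.11, adjusted p 0.000288). Ddr2, its relative that binds fibrillar collagen, rose by 0.59 (adjusted p 0.00735), and Mrc1, a mannose receptor that can take up collagen, by 1.18 (adjusted p 0.000532). The 6 leukocyte markers summed to 233 to 250 in AC9 cells and 204 to 208 in VECTOR cells, with 5 of them under the bound in both groups. Laptm5, the marker above it, was not called (limma adjusted p 0.104). Of the 6, 1 was called higher, though under the bound in both groups, and 0 lower. The part of these markers in the rise of Mrc1 was not tested.

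Of 20 laminin receptors and basement membrane linkers, 3 rose and 2 fell (median 0.01). That is 25% called, beside 17.6% of all genes, and 5 of the 20 lay under the bound in both groups. Bcam, which binds the alpha chain encoded by Lama5, had a change of -1.07 (SE 0.13, adjusted p 0.000762), and Itga6, a laminin-binding integrin subunit, rose by 0.41 (adjusted p 0.0117). Agrn, the proteoglycan agrin, rose by 0.41 (adjusted p 0.0165) and lost its call without AC9 replicate 1 (0.0539), AC9 replicate 3 (0.0656) or VECTOR replicate 1 (0.0573). Dag1, dystroglycan, had a change of -0.34 (adjusted p 0.0229) and was not called with any 1 array left out (0.0519 to 0.0819) or with the replicate block (0.0510). Hmcn1 was called upward but lay under the bound in both groups.

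Of 28 other matrix glycoproteins, 3 rose and 6 fell (median -0.08). That is 32.1% called, beside 17.6% of all genes, and 12 of the 28 lay under the bound in both groups. Thbs1, thrombospondin 1, had a change of -1.53 (SE 0.12, adjusted p 5e-05), the tenascin gene Tnc of -1.03, the fibulin-like Efemp1 of -0.77 and Fbln1 of -0.61, whereas the median over all genes was 0.02. Over the 4 lists 11 of 82 genes rose and 13 fell, 29.3% called. The share was 14.1% for the collagens, laminins and their enzymes and 17.6% for all genes. Among genes above the bound in at least 1 group the shares were 40.4%, 19.5% and 27.9%, in the same order. The differences between these shares were not tested.

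**Figure D4:**
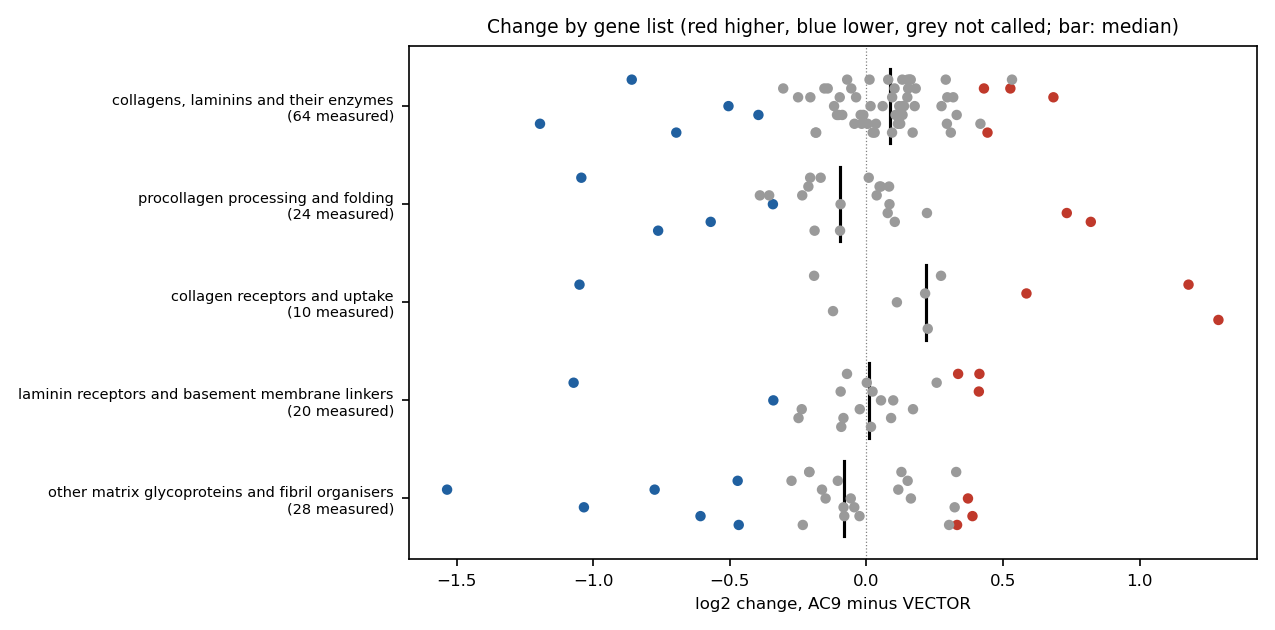
Log2 change (AC9 minus VECTOR, horizontal axis) of each gene of the collagens, laminins and their enzymes (64 genes) and of the 4 related lists (24, 10, 20 and 28 genes); points are genes, red and blue ones called higher or lower, and black bars are medians. The medians lie between -0.10 and 0.22, and the collagen receptor list holds called genes past 1 in both directions.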

How the data were processed

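Total RNA of 6 cell samples was hybridised to Affymetrix Clariom S arrays, 1 for each sample, per the labels' protocols. The deposited values are log2 intensities per probe set that the authors computed by RMA, according to the submitters' processing notes; the sources used here name neither its software nor a build. Of 22206 probe sets that are no controls, 19572 had 1 gene symbol in GEO's platform annotation and 2634 had none here. Where a gene had several probe sets the one with the highest mean was taken, leaving 19505 genes.

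AC9 was compared with VECTOR over all genes in R 4.3.3 with limma 3.58.1 (lmFit, eBayes, two-sided, Benjamini-Hochberg, threshold 0.05), with no further normalization or filter. On simulated data of 19505 genes, with 100 genes changed by each amount, this fit recovered 19% of changes of 0.4 and 99% of changes of 1 (log2). The array data gave 3424 calls, so the adjustment was less strict there. The simulated shares are therefore not the recovery in these data. SE and 95% intervals are those of the fit. The labels do not say that samples of a group were separate cultures: p-values then measure only how far these samples spread, possibly for technical reasons. The small number of arrays limits precision.

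The genes and lists were chosen with earlier results of these data known. Named genes are all those called, per role the gene with the highest mean and that with the smallest p above the bound, those beside the threshold, up to 4 called genes per list with the largest change, and partner chains as values; Lama1, Col1a1, Col3a1, Col15a1, Col19a1, Col9a3, Col26a1, Col28a1, P4hb, Serpinh1 and Hmcn1 were added after their values were seen. Promoters are from RefSeq (GRCm38.p6). Alternatives were an intensity-trended prior, repeated quantile normalization, median centring, a filter on dim genes, other probe-set choices, weighting of arrays, a block for replicate number, each array left out, and a stricter threshold.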

Additional observations from a re-analysis of the deposited data

Results flagged for a closer look

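Probe sets without a gene name were left out of the comparison. Of these 2634, 149 read higher in AC9 cells and 126 lower (limma, adjusted p over all probe sets that are no controls), which is a signal in data not otherwise used. Whether any belongs to a collagen or laminin gene is not known.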

How the results depend on the processing

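P4ha3, Lamb2, Lamc1 and Loxl3 kept their calls in all 14 settings run for each. Over 475 combinations of a named gene and a setting, 429 kept direction and side of the threshold, 32 lost the call, 9 gained it and 5 changed sign, the cause of which was not tested. The sign changes concern uncalled genes near 0: Col11a2 (reported at -0.04) had 0.002172 after repeated quantile normalization and -0.1381 to 0.1119 with 1 array left out, among them 0.0404 without AC9 replicate 3, and Col8a2 (reported at 0.02) had -0.02578 to 0.06278, among them -0.02294 without AC9 replicate 2. At an adjusted p of 0.01, 4 of the 64 genes were called (1 higher, 3 lower), 14 pathway genes (5 higher) and 1670 of all genes (729 higher, 941 lower), since that threshold is stricter. With 1 array left out, and so fewer samples, the 64 genes gave 5 to 10 calls (2 to 6 higher, 3 to 5 lower), the pathway lists 6 to 10 higher, and all genes 2174 to 3025 (968 to 1491 higher, 1206 to 1534 lower); the 5 came without VECTOR replicate 1 and the 2174 without AC9 replicate 1. The labels do not say whether replicate numbers pair the arrays. Deviations of same-numbered arrays correlated at 0.00846, 0.0814 and 0.00764, and those of differently numbered arrays at -0.0924 to 0.0878. With 3 arrays per group these values cannot decide whether the arrays are paired. With the replicate block, 10 of the 64 genes were called (6 higher, 4 lower), 21 pathway genes and 3062 of all genes. Of the 64 genes, 23 were dimmer than the bound in both groups, so their size of change is not measured.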
